A study of Mus musculus with 7 samples.

Results

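Parental B16F10 cells were set against 4 B16F10 clones labelled PECAM1+, clones A2, A3, A4 and A5. B16F10 is a mouse melanoma cell line widely used as a model of tumour growth and metastasis. The comparison used 5 of the 7 arrays of the series, 1 of the parental line, which is labelled PECAM1-, and 1 of each PECAM1+ clone. The other arrays, 1 of the PECAM1- clone A1 and 1 of mouse dermal endothelial cells (MDEC), entered no test, and their values stand beside some results. Every B16F10 sample grew in DMEM with serum and no treatment was given. The labels do not say how the clones were obtained, whether they arose independently of each other, or whether any array repeats a culture. Each clone is therefore a line of its own with 1 array, and the parental population was measured once.

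PECAM1 (CD31) is an adhesion receptor of the immunoglobulin family that endothelial cells, platelets and leukocytes carry. It binds itself across cell contacts, and its cytoplasmic tail holds inhibitory motifs that, once phosphorylated by Src family kinases, recruit the phosphatase SHP-2, encoded by Ptpn11. Melanocytes are not among its usual sites. The series was made to find expression signatures of PECAM1+ and PECAM1- cells, and the comparison here asks how the PECAM1+ clones differ from the population they are named after.

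Expression is given on the log2 scale, so 1 unit is a 2-fold difference, and a difference is always the mean of the 4 clones minus the parental value. Values of the clones are listed in the order A2, A3, A4, A5 throughout. Array medians lay between 6.12 and 6.16, and each pair of the 5 arrays held exactly identical values for 10.6% to 13.1% of the genes, which limits what a small spread can show. All 5 arrays carried the melanoma profile: the mean level of 7 melanocyte genes was 11.71 on the parental array, between 11.63 and 12.15 in the clones, and 5.93 in MDEC. Mean levels of markers of other cells were as follows. The mean of 6 endothelial markers (Cdh5, Kdr, Tek, Tie1, Vwf and Emcn) was 5.21 in the parental cells, 5.10 to 5.22 in the clones and 9.81 in MDEC. For leukocyte and platelet markers these means were 5.01 and 4.94 to 5.03, for fibroblast and mural cell markers 6.52 and 6.37 to 6.85 with clone A3 highest, and for keratinocyte markers 5.93 and 5.78 to 5.98.

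Of 19938 genes, 130 differed by at least 2-fold between the parental array and the clone mean with the parental value outside the range of the 4 clones, which is 0.652% of all genes. These are called past the size rule below. The clones were higher at 90 of them (0.451% of all genes) and lower at 40 (0.201%). Counts in gene lists below are to be read beside these shares, at which a short list can hold none. Being outside the clone range was common by itself, at 8504 genes or 42.7%, with the clones higher at 4107 and lower at 4397, so the range alone marks little. The rule cuts a continuous scale: Ccdc80 and Trim12c, both at 1.00, were just inside it, and Slc26a2 at 0.999 and Snord35a at -0.998 just outside.

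**Figure D1:**
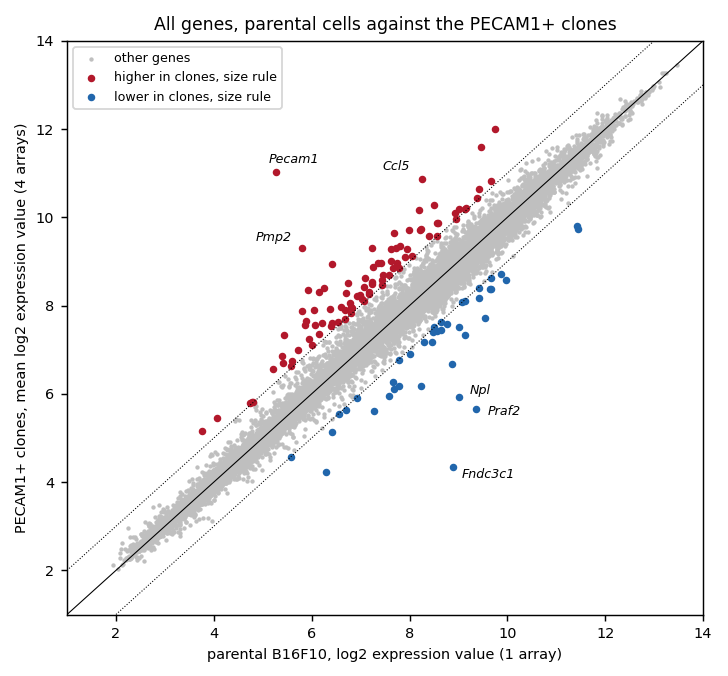
Parental B16F10 level (horizontal axis, 1 array) against the mean of the 4 PECAM1+ clones (vertical axis), both as log2 expression values, 1 point per gene for 19938 genes. The solid line marks equal values and the dotted lines 2-fold differences; red and blue points are the 90 higher and 40 lower genes past the size rule, and Pecam1 lies farthest from the line.

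Limma's moderated test over all genes, with Benjamini-Hochberg adjustment, called 2 genes, Pecam1 and Fndc3c1, or 0.0100% of those tested, and 2684 genes (13.5%) had an unadjusted p under 0.05. The parental group holds 1 array, so this test assumes that parental cells would vary as the clones do, with 3 residual degrees of freedom, and its p-values measure how far these samples scatter, which can be technical scatter. An exact permutation test of 1 array against 4 cannot go below 0.2 for any gene. Without clone A2 only Pecam1 was called, and without clone A3, A4 or A5 no gene was, with 2 residual degrees of freedom left. At most genes the sections below therefore give sizes and positions, not calls.

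Pecam1, on chromosome 11, gave the largest difference of all genes. It read 5.27 in the parental cells and 11.07, 11.01, 11.03 and 10.996 in the clones, so the 4 clones lay close together and far above the parental array. Clone A1 read 5.43 and MDEC 11.72. The parental line was labelled PECAM1- and the clones PECAM1+, so a difference in this gene follows from the labels. It is no independent finding. An array measures a whole culture, so here and below fewer expressing cells and less RNA per cell cannot be told apart. Pecam1 rose by 5.76 ± 0.05 (SE) with a limma adjusted p of 0.000829. The parental value is below the array median and its distance from background is unknown, so the measured size may understate the change. Without clone A3, A4 or A5 the difference stayed between 5.76 and 5.77 and the adjusted p lay between 0.070 and 0.083.

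None of the partners of PECAM1 was past the size rule, beside 0.652% of all genes, so this count says little about them. Of 34 genes for its known kinases, phosphatases, adaptors and neighbours 31 were measured, and their median difference was 0.028 beside -0.00067 for all genes. Ptpn11, its main phosphatase, read 10.32 in the parental cells and 10.32, 10.33, 10.18 and 9.99 in the clones. Itgb3, the integrin beta 3 chain that pairs with alpha V to bind PECAM1, had the largest difference of the list, at 0.50 ± 0.17 (adjusted p = 0.332). It read 7.07 in the parental cells against 7.34, 7.61, 7.75 and 7.59, with no overlap. Among the adaptors and signalling enzymes the largest was Plcg1, the phospholipase C gamma 1 gene, at -0.41 ± 0.18 (adjusted p = 0.467).

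Of the 45 measured genes in a list of endothelial identity none passed the size rule, beside 0.652% of all genes. Pecam1 is not among these 45, nor are Cav1 and Cdh13, given below, which passed the rule as lower. In that list 17 were higher and 27 lower, and the median was -0.035. Kdr, the main receptor for VEGF-A, read 4.68 in the parental cells and 4.54 to 4.68 in the clones, with 9.15 in MDEC. Tek, the angiopoietin receptor, read 4.75 and 4.62 to 4.84, with 8.37 in MDEC. The largest difference of the list belonged to Pdpn, the lymphatic surface protein podoplanin, at 0.92 ± 0.44 (adjusted p = 0.512). Its parental value of 7.71 lay below clone values of 9.11, 8.05, 8.84 and 8.49.

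Fndc3c1, an X-linked fibronectin type III domain gene whose expression is best known from testis, was the only gene called lower. It read 8.89 in the parental cells and 4.38, 4.49, 4.21 and 4.29 in the clones, and 7.88 in clone A1. All 4 clones sat near the MDEC level of 4.54. Fndc3c1 fell by 4.55 on the log2 scale (SE 0.12) with a limma adjusted p of 0.0254, and the adjusted p lay between 0.116 and 0.233 with any 1 clone left out. The limit given for Pecam1 holds here for the clone values.

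Praf2 and Npl followed it. Praf2, an X-linked gene for a membrane protein of the endoplasmic reticulum that holds receptors back from the cell surface, read 9.37 in the parental cells and 5.86, 5.47, 5.31 and 5.98 in the clones. The difference of -3.71 ± 0.31 had an adjusted p of 0.0955, and clone A1 read 10.11. Npl, which encodes the lyase that splits free sialic acid, read 9.00 against 5.75, 5.83, 5.86 and 6.24, with 8.03 in clone A1. Its difference was -3.08 ± 0.21 (adjusted p = 0.0951). For both genes every clone lay more than 2 units below the parental cells.

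The other sialic acid genes did not share the position of Npl. Of 36 listed genes 35 were measured, Npl alone passed the size rule, and the median was -0.012. In synthesis and activation, Cmas, which makes CMP-sialic acid, read 10.36 in the parental cells and 10.22, 9.92, 10.13 and 10.07 in the clones. In breakdown, Neu1, the lysosomal sialidase, was on the other side, at 8.25 against 8.54, 8.78, 9.30 and 9.03, a difference of 0.66 ± 0.32 (adjusted p = 0.509). In transfer, the largest difference was that of the sialyltransferase gene St3gal6, at 0.47 ± 0.17 (adjusted p = 0.356).

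**Figure D2:**
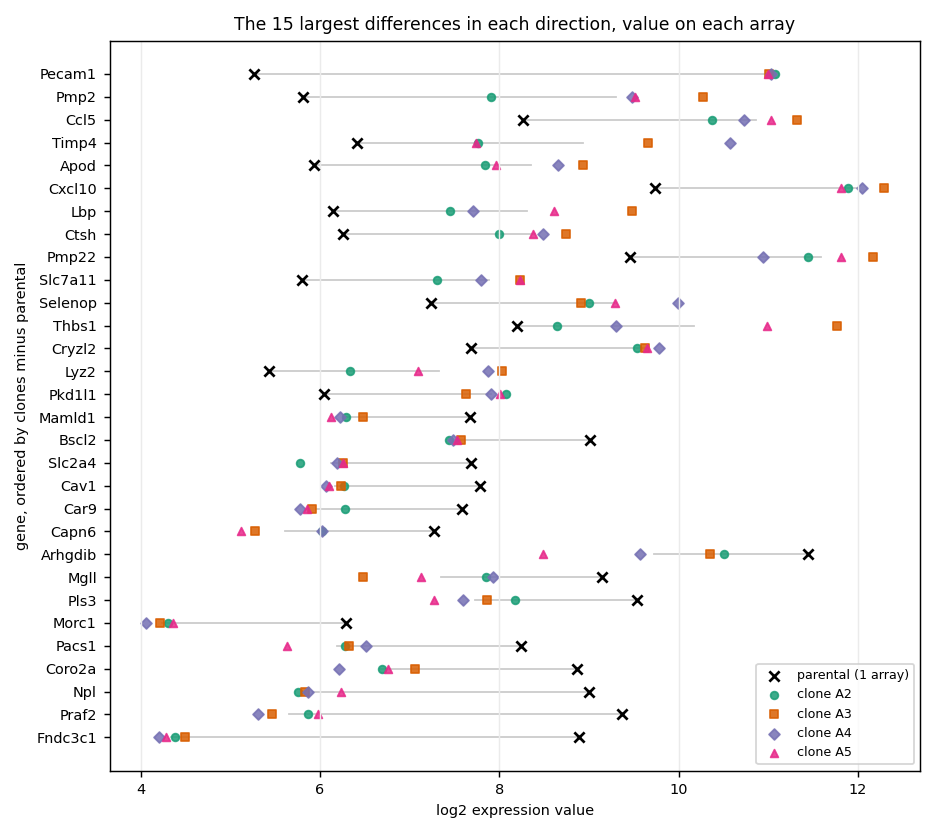
Log2 expression value (horizontal axis) on the parental array (cross) and on the array of each PECAM1+ clone (coloured symbols) for the 15 named genes with the largest difference in each direction, ordered by clones minus parental; grey lines join the parental value to the clone mean. Clone symbols overlap for Pecam1, Cryzl2, Bscl2, Cav1 and Fndc3c1 and spread over 2 units or more for Timp4, Thbs1, Lbp, Pmp2 and Arhgdib.

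Further lower genes came from several of the gene lists. Morc1 and Piwil2 belong with Fndc3c1 to a list of 34 measured germline and cancer-testis genes. Of these 34 genes 3 passed the size rule, all lower (beside 0.201% of all genes), while the list median was 0.0086. Morc1, a chromatin regulator that represses transposons in male germ cells, read 6.29 in the parental cells and 4.31, 4.22, 4.06 and 4.36 in the clones (-2.05 ± 0.13, adjusted p = 0.0933). Clone A1 read 7.89. Piwil2, a PIWI protein that binds piRNAs in testis, read 9.66 against 8.49, 8.46, 8.16 and 8.38 (-1.28 ± 0.15). In both genes the clones lay together, more than 1 unit below the parental array.

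Coro2a, Pls3 and Arhgdib were among the 15 largest negative differences. Coro2a, a coronin family protein, read 8.87 in the parental cells and 6.69, 7.06, 6.22 and 6.76 in the clones, with 5.59 in clone A1. Pls3, the actin bundler plastin 3, read 9.54 against 8.17, 7.86, 7.60 and 7.27, with 10.21 in clone A1. Arhgdib, a regulator of small GTPases, read 11.44 against 10.50, 10.35, 9.57 and 8.48. Arhgdib spread over 2 units within the clones, and its difference of -1.71 ± 0.89 had an adjusted p of 0.556. Pls3 belongs to a list of 34 measured epithelial-mesenchymal transition and cadherin genes. Of these Pls3 and Cdh13 passed the size rule, both lower (beside 0.201% of all genes). The list median was -0.010, with 15 members higher and 19 lower. Grhl2, an epithelial regulator outside that list, passed the rule as higher, at 6.21 against 7.81, 7.54, 7.71 and 7.40. Cdh13, the T-cadherin gene, read 6.56 in the parental cells and 5.53, 5.69, 5.48 and 5.49 in the clones (-1.01 ± 0.10, adjusted p = 0.0976).

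Of the 40 lower genes past the size rule 9 lie on chromosome 11, 6 on the X chromosome and 5 on chromosome 6. In that order these chromosomes hold 1563, 739 and 1099 of the 19856 genes with a known chromosome. Of 739 genes on the X chromosome 6 passed the size rule as lower, Fndc3c1, Praf2, Pls3, Capn6, Mamld1 and Tmsb4x, and 3 as higher, and the median over the chromosome was 0. Capn6, a calpain without protease activity that binds microtubules, read 7.27 in the parental cells and 6.02, 5.28, 6.02 and 5.11 in the clones. Mamld1, known from male genital development, read 7.67 against 6.28, 6.48, 6.22 and 6.12. Tmsb4x, the actin-sequestering peptide thymosin beta 4, was named after its values were seen and read 8.45 against 7.28, 7.76, 7.10 and 6.55. None of these values in a clone reached the parental level.

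Caveolae are small membrane pits coated by caveolins and cavins. Cav1, the main caveolin of non-muscle cells, read 7.78 in the parental cells and 6.26, 6.24, 6.06 and 6.10 in the clones, a difference of -1.61 ± 0.10 (adjusted p = 0.0933), with 7.80 in clone A1. It was the only 1 of 10 measured caveolar genes past the size rule, and the list median was -0.14. Cav2, its partner, was higher, at 9.03 against 9.27, 9.25, 9.56 and 9.47 (0.36 ± 0.15, adjusted p = 0.455). Cavin1, the main cavin, read 8.66 against 8.18, 8.12, 7.28 and 8.07, so clone A4 stood below the other clones (-0.75 ± 0.41, adjusted p = 0.585).

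Hypoxia and glycolysis genes were mostly a little lower. Of 37 measured members 27 were lower and 10 higher, and 3 passed the size rule, all lower (beside 0.201% of all genes). The median was -0.10, with medians of single clones from 0 in A2 to -0.21 in A4. Car9, the surface carbonic anhydrase induced by low oxygen, read 7.58 in the parental cells and 6.28, 5.91, 5.77 and 5.85 in the clones (-1.63 ± 0.22, adjusted p = 0.136), with 8.68 in clone A1. Aldoc, an aldolase, read 9.42 against 8.27, 6.86, 8.96 and 8.64. Slc16a3, the lactate exporter MCT4, read 9.66 against 9.05, 8.13, 8.40 and 8.93. Clone A3 was lowest for both of these. Vegfa, a textbook hypoxia target, was not lower: it read 8.60 against 8.94, 9.02, 8.57 and 8.90 (0.25 ± 0.19). Slc2a4, the insulin-regulated glucose transporter GLUT4, lies outside that list and read 7.68 against 5.77, 6.25, 6.19 and 6.25.

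In a list of lipid storage genes, 2 of 36 measured passed the size rule, both lower (beside 0.201% of all genes), with a list median of -0.0027. Mogat1, a monoacylglycerol acyltransferase outside that list, passed the rule as higher, at 7.09 in the parental cells against 8.38, 9.00, 8.28 and 8.81. Mgll, the lipase that cleaves monoacylglycerols, read 9.14 in the parental cells and 7.85, 6.47, 7.93 and 7.12 in the clones (-1.80 ± 0.66, adjusted p = 0.378), with 10.94 in clone A1. Bscl2, which encodes seipin, a protein of lipid droplet assembly, read 9.00 against 7.44, 7.57, 7.49 and 7.52. Its clones lay close together, and the difference of -1.50 ± 0.07 had an adjusted p of 0.0738, the lowest after the called genes among those named here. Cpt1a, which carries fatty acids into mitochondria, read 9.38 against 8.57, 8.81, 8.74 and 8.94. Pacs1, a sorting protein of the trans-Golgi network on chromosome 19 like Bscl2, read 8.24 against 6.28, 6.32, 6.51 and 5.63.

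Sterol genes lay on the other side. Of the cholesterol synthesis enzymes, 17 of 17 measured were higher in the clones. At 15 of them the parental value lay below every clone, beside 4107 of all 19938 genes. None passed the size rule, and their median was 0.27 (0.28, 0.21, 0.28 and 0.41 in the single clones). Hsd17b7, which acts late in the pathway, read 8.90 in the parental cells and 9.40, 9.92, 9.80 and 9.63 in the clones (0.79 ± 0.22, adjusted p = 0.283). Idi1, which acts early, read 8.67 against 9.43, 9.24, 9.06 and 9.18 (0.56 ± 0.16, adjusted p = 0.282). Every clone lay above the parental value for both enzymes. Among 10 fatty acid synthesis and desaturation genes 7 were lower, with a median of -0.25. Fads1 lies in a run of lower genes on chromosome 19, described below. Fads1, a desaturase, read 11.11 against 10.73, 10.57, 10.24 and 10.72 (-0.55 ± 0.22, adjusted p = 0.426). Insig2, a regulator that retains the sterol sensor in the endoplasmic reticulum, differed by 0.49 ± 0.34 and Srebf2, the sterol transcription factor, by 0.05 ± 0.08 (adjusted p = 0.709 and 0.980).

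Interferon genes gave the highest count of higher genes past the size rule among the gene lists, in the longest of them. Type I interferons signal through the receptor chains Ifnar1 and Ifnar2 and the kinases Jak1 and Tyk2 to transcription factors that bind the interferon-stimulated response element and switch on antiviral effectors. Of 75 measured genes of the pathway 52 were higher and 23 lower, 7 passed the size rule, all higher (beside 0.451% of all genes), and none was called. The median was 0.11, from 0.089 in clone A4 to 0.26 in clone A3. These 7 were Trim30a, Usp18, Ifit1, Rsad2, Oasl1, Rtp4 and Mx2.

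The difference sat in the effectors. In the list of 41 measured antiviral effectors 35 were higher. At 29 of them the parental value lay below every clone, beside 4107 of all 19938 genes. The median was 0.38, with medians of 0.43, 0.48, 0.30 and 0.33 in the single clones. Ifit1, which binds viral RNA lacking a host cap, read 7.81 in the parental cells and 9.29, 9.33, 9.51 and 9.23 in the clones (1.54 ± 0.13, adjusted p = 0.0955). Rsad2, the antiviral enzyme viperin, read 8.20 against 9.58, 9.73, 9.80 and 9.76 (1.51 ± 0.10, adjusted p = 0.0951). Trim30a, a tripartite motif protein, read 6.73 against 8.73, 8.87, 8.38 and 8.04. The 4 clones were above the parental array for each of these effectors, and clone A1 was higher still, at 10.45 for Ifit1, 11.20 for Rsad2 and 9.58 for Trim30a.

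The other effectors ranged from 1.22 for Oasl1 to -0.17 for Ifit2, and 6 of the 41 were lower. Oasl1, related to the oligoadenylate synthetases, read 6.68 in the parental cells and 7.65, 8.31, 7.78 and 7.86 in the clones. Rtp4, a receptor chaperone, read 7.18 against 8.29, 8.56, 8.16 and 8.26. Mx2, a dynamin-like antiviral GTPase, read 4.79 against 5.82, 5.95, 5.76 and 5.69. The parental array was the lowest of the 5 for each gene, and clone A3 the highest. Clone A1 read 8.35, 9.71 and 6.52 in the order Oasl1, Rtp4 and Mx2. Below 2-fold, Ifit3 read 8.57 against 9.45, 9.45, 9.70 and 9.26. Its relative Ifit2 was lower in every clone, at 8.61 against 8.53, 8.47, 8.29 and 8.47. Probes of close paralogs in the Ifit, Oas and Trim30 families can share signal, so the values of single members of these families are uncertain.

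Upstream members of the pathway differed less. Ifnb1, the interferon beta gene, read 4.13 in the parental cells and 4.19, 4.22, 4.22 and 4.29 in the clones, and 7 of 8 measured ligands were lower, with a median of -0.048. Receptors and kinases had a median of -0.0031: Ifnar1 read 9.30 against 9.24, 9.04, 9.23 and 9.10, and Ifnar2 9.97 against 10.21, 10.14, 9.99 and 10.01. Among the sensors of viral nucleic acid, with a median of 0.065, the largest difference was that of Ifih1, the RNA sensor MDA5, at 7.05 against 7.70, 7.82, 7.68 and 7.68 (0.67 ± 0.08, adjusted p = 0.121). Among the transcription factors Stat2 read 7.35 against 7.68, 7.73, 7.76 and 7.75, and Irf9 7.99 against 8.40, 8.37, 8.29 and 8.27, so both lay above the parental value in every clone.

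Irf7 went the other way. This transcription factor amplifies the response and is itself an interferon-stimulated gene, yet it read 6.04 in the parental cells and 5.70, 5.16, 5.39 and 5.34 in the clones, a difference of -0.64 ± 0.22 (adjusted p = 0.339). Clone A1 read 8.17. Among the negative regulators Usp18, which removes ISG15 and blocks the receptor, read 7.73 against 9.25, 9.59, 9.35 and 9.05 (1.58 ± 0.22, adjusted p = 0.139), whereas Socs1, an inhibitor of the kinases, read 6.74 against 6.77, 6.78, 6.78 and 6.78. The parental array was thus below every clone for Usp18 and above every clone for Irf7. For Usp18 clone A1 read 10.30.

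**Figure D3:**
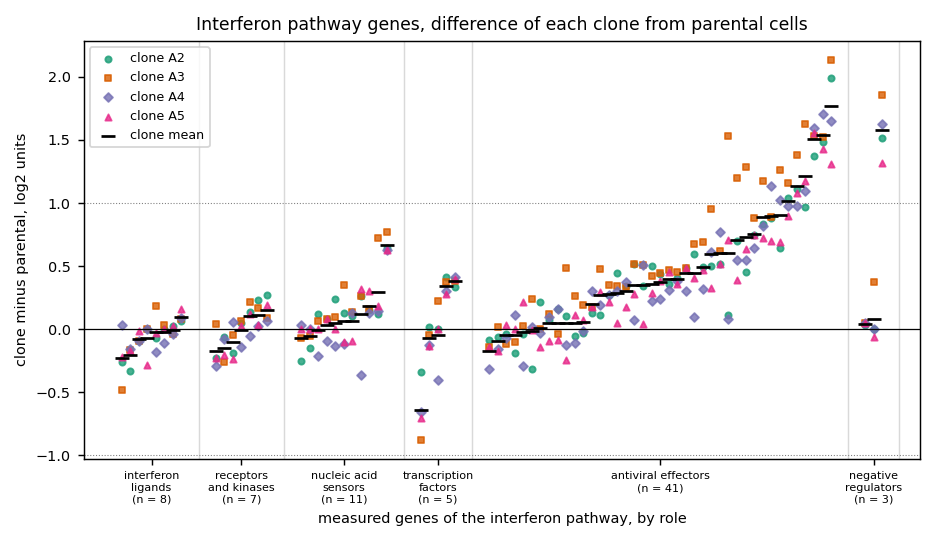
Difference of each PECAM1+ clone from the parental array in log2 units (vertical axis, coloured symbols; black bars are clone means) for the 75 measured genes of the interferon pathway, grouped by role and ordered within each role; dotted lines mark 2-fold. The antiviral effectors reach above 1 at the right of their block, Usp18 stands alone among the negative regulators, and Irf7 is the lowest of the transcription factors.

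Promoter letters were read for the higher interferon genes because their members were higher together. The core of the interferon-stimulated response element was searched as GAAANNGAAA on both strands of the 250 bases before each start in RefSeq promoters (GRCm38.p6), and 2.98% of 32851 windows held it. Windows were matched for 59 of the 75 interferon genes, 18 of which held the letters. Of the 7 genes past the size rule 4 had a window. Ifit1, Rsad2 and Trim30a held the letters and Oasl1 did not. Of all genes past the size rule, 10 of the 59 higher genes with a window held the motif and 2 of the 25 lower ones, beside 3.46% of all genes with a window. A match is a description of letters and not a binding site. Cxcl10 lies outside the interferon list and is 1 of the 10 higher genes with the motif. Only windows with a match are printed. Those of Ifit1, Rsad2, Trim30a (1 of its 2 windows) and Cxcl10 are given on the gene strand with the match in capitals. It lies on the opposite strand, read as TTTCNNTTTC, in the first 3, where it starts 104 and 85 bases before the start of Ifit1, 120 before that of Rsad2 and 36 before that of Trim30a. In Cxcl10 it begins 213 bases before the start.
Ifit1, chr19:34640639-34640888, plus strand: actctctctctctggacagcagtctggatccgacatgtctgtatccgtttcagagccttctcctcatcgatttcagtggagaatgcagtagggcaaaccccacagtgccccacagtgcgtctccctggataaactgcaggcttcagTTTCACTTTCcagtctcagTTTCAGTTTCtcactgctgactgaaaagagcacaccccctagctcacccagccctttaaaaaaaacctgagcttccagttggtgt
Rsad2, chr12:26456453-26456702, minus strand: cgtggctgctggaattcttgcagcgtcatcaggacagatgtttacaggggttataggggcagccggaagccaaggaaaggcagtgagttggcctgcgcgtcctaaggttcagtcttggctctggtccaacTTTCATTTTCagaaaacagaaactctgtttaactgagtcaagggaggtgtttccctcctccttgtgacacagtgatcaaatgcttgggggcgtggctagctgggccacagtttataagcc
Trim30a, chr7:104465194-104465443, minus strand: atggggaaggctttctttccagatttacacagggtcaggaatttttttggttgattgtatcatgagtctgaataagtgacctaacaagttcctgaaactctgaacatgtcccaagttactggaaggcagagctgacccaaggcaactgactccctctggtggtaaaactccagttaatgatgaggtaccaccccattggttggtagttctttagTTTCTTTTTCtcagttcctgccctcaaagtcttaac
Cxcl10, chr5:92348890-92349139, minus strand: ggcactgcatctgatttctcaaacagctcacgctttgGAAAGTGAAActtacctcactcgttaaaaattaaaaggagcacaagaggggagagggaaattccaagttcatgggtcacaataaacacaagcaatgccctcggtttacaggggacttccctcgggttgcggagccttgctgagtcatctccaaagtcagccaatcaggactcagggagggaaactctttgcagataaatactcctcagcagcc

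Antigen processing genes, many of them interferon responsive, differed by less. None of 21 measured passed the size rule, 14 were higher, and the median was 0.076. Tap1, the peptide transporter chain, had the largest difference, at 6.84 in the parental cells against 7.47, 7.87, 7.48 and 7.59 (0.76 ± 0.18, adjusted p = 0.237).

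Chemokines held 2 of the strongest higher genes. Ccl5, which attracts T cells and monocytes, read 8.26 in the parental cells and 10.37, 11.32, 10.73 and 11.02 in the clones, a difference of 2.60 ± 0.39 or 6.05-fold (adjusted p = 0.145), with 11.96 in clone A1. Cxcl10, the interferon-inducible ligand of CXCR3 whose promoter is printed above, read 9.74 against 11.89, 12.28, 12.04 and 11.81 (2.27 ± 0.20, adjusted p = 0.0976). Every clone was at least 2 units above the parental array for both chemokines, and clone A1 read 11.36 for Cxcl10. In a list of 62 measured chemokine, cytokine and NF-kB genes 3 passed the size rule, all higher (beside 0.451% of all genes). They were Ccl5, Cxcl10 and Lif. Lif, a cytokine of the interleukin 6 family, read 5.86 against 7.56, 7.90, 7.59 and 7.19 (1.69 ± 0.28). The receptor genes Il12rb1 and Tnfrsf11b lie outside that list and passed the rule as higher, at 1.24 and 1.14. The median of the list was 0.026.

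Adhesion and NF-kB members of that list were divided, and Rela lies in a run of lower genes on chromosome 19, described below. Icam1, an adhesion receptor and NF-kB target, read 6.35 in the parental cells and 7.14, 7.14, 7.14 and 7.30 in the clones (0.83 ± 0.08, adjusted p = 0.107). Ackr3, a scavenging chemokine receptor, read 5.22 against 5.86, 5.97, 5.96 and 6.38. Rela, the p65 subunit of NF-kB, was lower, at 9.90 against 9.57, 9.68, 9.26 and 9.38 (-0.43 ± 0.19, adjusted p = 0.457), so Icam1 and Rela lay on opposite sides of the parental value in every clone.

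Genes of peripheral glia, which share the neural crest origin of melanocytes, included Pmp2, the fatty acid binding protein of myelin. Pmp2 read 5.81 in the parental cells and 7.91, 10.27, 9.48 and 9.52 in the clones, with 4.29 in clone A1 and 4.39 in MDEC. Its difference of 3.49 ± 0.96 was the largest positive one after Pecam1, but the clones spanned more than 2 units and the adjusted p was 0.275. Apod, the lipid carrier apolipoprotein D, read 5.93 against 7.84, 8.93, 8.65 and 7.97 (2.41 ± 0.51). Pmp22, a myelin membrane protein, read 9.46 against 11.44, 12.16, 10.94 and 11.81 (2.12 ± 0.51). Clone A3 was the highest of the clones for all 3.

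Of 28 measured myelin and glial genes 4 passed the size rule, all higher (beside 0.451% of all genes), and the median was 0.062. The other one was S100b, a calcium-binding protein of glia and melanocytes, named after its values were seen. It read 8.24 in the parental cells and 9.67, 9.29, 10.46 and 9.50 in the clones, and 10.03 in clone A1 (1.49 ± 0.49, adjusted p = 0.330).

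Pigment genes had a median of 0.0017 over 34 measured, and 1 passed the size rule. By role, 9 of 11 melanin enzyme and matrix genes and 8 of 11 transport genes were higher (medians 0.084 and 0.098). All 7 transcription genes and 4 of 5 receptor genes were lower (medians -0.16 and -0.081). Tyr, the rate-limiting enzyme of melanin synthesis, read 8.49 in the parental cells and 10.29, 9.63, 10.84 and 10.38 in the clones (1.79 ± 0.48, adjusted p = 0.270), with 10.29 in clone A1. Gpr143, a receptor of the melanosome membrane, read 8.96 against 9.59, 9.28, 10.49 and 9.72. Mc1r, the melanocortin receptor upstream of pigment synthesis, was lower, at 10.88 against 10.17, 9.94, 10.45 and 9.94 (-0.75 ± 0.24, adjusted p = 0.314). For Tyr and Gpr143 clone A4 was highest. The lineage regulators Mitf and Sox10 differed by -0.19 ± 0.19 and -0.16 ± 0.15, within 1 standard error or close to it.

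Some higher genes varied strongly among the clones, and the 4 given here were put together for their shared order. Thbs1, the matrix protein thrombospondin 1, read 8.19 in the parental cells and 8.64, 11.76, 9.30 and 10.99 in the clones. Ankrd1, a YAP target and muscle-type ankyrin repeat protein, read 6.08 against 6.71, 9.33, 6.22 and 7.98. Lbp, which binds bacterial lipopolysaccharide, read 6.15 against 7.45, 9.48, 7.70 and 8.61. In all 3 clone A3 was highest, clone A5 next, and clones A2 and A4 nearer to the parental level. Adamts4, an aggrecan-cleaving protease, showed that order too, at 7.95 against 8.90, 10.09, 8.65 and 9.45. In the order Thbs1, Ankrd1, Lbp and Adamts4 the differences were 1.98 ± 1.40, 1.48 ± 1.35, 2.16 ± 0.89 and 1.32 ± 0.62, with adjusted p between 0.431 and 0.838.

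Thbs1 and Ankrd1 belong to 34 measured targets of YAP, TGF-beta and BMP. Of these 34 genes 4 passed the size rule, all higher (beside 0.451% of all genes). The median of 0.15 ran from 0.033 in clone A2 to 0.22 in clone A3. Id1, a BMP-induced inhibitor of differentiation factors, read 7.45 in the parental cells and 7.57, 8.94, 9.66 and 8.13 in the clones, so clone A2 was next to the parental value. Timp4, an inhibitor of metalloproteinases, read 6.41 against 7.76, 9.65, 10.57 and 7.74 (2.52 ± 1.36, adjusted p = 0.576). Thbs1 and Timp4, both past the size rule, are not in the list of matrix and basement membrane genes. Of the 65 measured genes of that list Adamts4 alone passed the rule, and its median was 0.042.

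Clone A2 was the nearest clone overall. Of the 90 higher genes past the size rule, it was the clone closest to the parental array at 42, and of the 40 lower ones at 19. The parental array and clone A2 differed by 2-fold or more at 108 genes, clone A5 at 144, clone A3 at 231 and clone A4 at 245, while pairs of clones differed at 30 to 159 genes. Clones A3 and A4, at 159 genes, were thus farther from each other than clone A2 was from the parental cells.

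Targets of p53 were mostly higher. Of 27 measured 21 were higher. At 17 of them the parental value lay below every clone, beside 4107 of all 19938 genes. Of the list 2 passed the size rule, both higher (beside 0.451% of all genes). The median was 0.17 (0.16, 0.18, 0.16 and 0.28 in the single clones). Tnfrsf10b, the death receptor for TRAIL, read 7.26 in the parental cells and 8.95, 8.68, 8.82 and 9.02 in the clones (1.61 ± 0.15, adjusted p = 0.0976). Trp53inp1, a p53-induced nuclear protein, read 9.02 against 10.13, 9.93, 10.30 and 10.39. Mdm2, the ubiquitin ligase that degrades p53, was named after its values were seen and read 10.26 against 11.05, 11.05, 11.05 and 11.12 (0.81 ± 0.05, adjusted p = 0.0933). The parental array lay below every clone for these 3 genes. The PECAM1- clone A1 read 7.88, 9.71 and 11.09 in the same order, so for Mdm2 it lay among the PECAM1+ clones. Eda2r, a receptor that p53 induces, was on the opposite side, at 7.59 against 7.31, 6.91, 6.83 and 6.57.

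Proliferation genes gave only small differences. Among 48 measured genes of replication, mitosis and the cyclins none passed the size rule, and the median was -0.027. The mitosis genes were lower at 14 of 19 with a median of -0.16, from -0.071 in clone A2 to -0.31 in clone A4, while the replication genes had a median of 0.032. Ccnb2, a mitotic cyclin, read 11.85 in the parental cells and 11.60, 11.39, 11.14 and 11.30 in the clones (-0.50 ± 0.19, adjusted p = 0.394).

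Slc7a11 and Selenop were among the 15 largest positive differences. Slc7a11, the cystine importer that feeds glutathione synthesis, read 5.80 in the parental cells and 7.30, 8.23, 7.79 and 8.23 in the clones (2.09 ± 0.43, adjusted p = 0.206), with 11.41 in clone A1. It was the only 1 of 41 measured amino acid and endoplasmic reticulum stress genes past the size rule, and the list median was 0.0069. Selenop, the plasma selenium carrier, read 7.24 against 9.00, 8.91, 9.99 and 9.29 (2.06 ± 0.47), with 9.59 in clone A1. A list of NRF2 and glutathione genes does not hold Slc7a11. Among its 33 measured genes none passed the size rule, with a median of 0.019. Gstm7, a glutathione transferase outside that list, passed the rule as higher, at 7.17 against 8.26, 8.21, 8.40 and 8.22. Within the list Gpx1 and Gpx4, selenium-dependent peroxidases, differed by 0.81 ± 0.20 and 0.77 ± 0.18. Gpx4 was read at 10.50 in the parental cells and 11.06, 11.19, 11.48 and 11.35 in the clones.

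Other genes among the 15 largest positive differences have mixed roles. Cryzl2, a quinone oxidoreductase-like gene, read 7.68 in the parental cells and 9.53, 9.63, 9.77 and 9.65 in the clones (1.97 ± 0.11, adjusted p = 0.0933), with little spread. Ctsh, a lysosomal cysteine protease, read 6.25 against 7.99, 8.75, 8.49 and 8.37. Pkd1l1, a polycystin family protein, read 6.05 against 8.07, 7.63, 7.90 and 8.01. All clone values for these 3 lay more than 1.5 units above the parental value. Clone A1 read 9.01, 8.75 and 5.21 in the order Cryzl2, Ctsh and Pkd1l1. Lyz2, the macrophage lysozyme, read 5.43 against 6.34, 8.03, 7.87 and 7.09, beside the leukocyte marker means given above. Ece1, which converts big endothelin, and Agt, angiotensinogen, were both higher. They were the 2 of 15 measured endothelin and renin-angiotensin genes past the size rule (beside 0.451% of all genes). They read 6.93 against 8.14, 8.32, 8.14 and 8.26 and 8.40 against 9.69, 9.84, 9.67 and 9.15. The median of the list was -0.025, with 5 members higher and 10 lower.

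In 2 further lists no gene passed the size rule. Immediate early genes had a median of 0.038 over 38 measured, with 0.17 in clone A3 and -0.0049 to 0.024 in the other clones. Imprinted genes had a median of -0.025 over 31 measured, and Mest, an imprinted gene expressed from the paternal copy, read 11.19 in the parental cells against 10.28, 10.62, 10.44 and 10.85.

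Small nucleolar RNAs guide the chemical modification of ribosomal RNA, the C/D box class directing methylation and the H/ACA class pseudouridylation, and most are cut from introns of host genes. This list was formed after the data were seen. Of 54 measured, 45 were lower in the clones. At 39 of these the parental value exceeded every clone, beside 4397 of all 19938 genes. The size rule was passed by 7 as lower (beside 0.201% of all genes) and by 1 as higher. The median was -0.48 beside -0.00067 for all genes. C/D box RNAs were lower at 29 of 31 with a median of -0.65 (-0.56, -0.66, -0.77 and -0.68 in the single clones). H/ACA RNAs were lower at 14 of 20 with a median of -0.17.

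Snord53 read 11.43 in the parental cells and 10.02, 10.02, 9.40 and 9.80 in the clones (-1.62 ± 0.28, adjusted p = 0.173), and Snord35b 9.98 against 8.78, 8.76, 8.26 and 8.55 (-1.39 ± 0.24, adjusted p = 0.166). Snora2b was the exception, at 5.58 against 6.45, 6.45, 7.19 and 6.45. Genes for their protein partners differed less. Fbl, the methyltransferase fibrillarin, differed by 0.07 ± 0.16 and Nop58 by 0.17 ± 0.10. The mean C/D box level was 8.35 in the parental cells, 7.61 to 7.81 in the clones, 8.08 in clone A1 and 7.63 in MDEC.

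**Figure D4:**
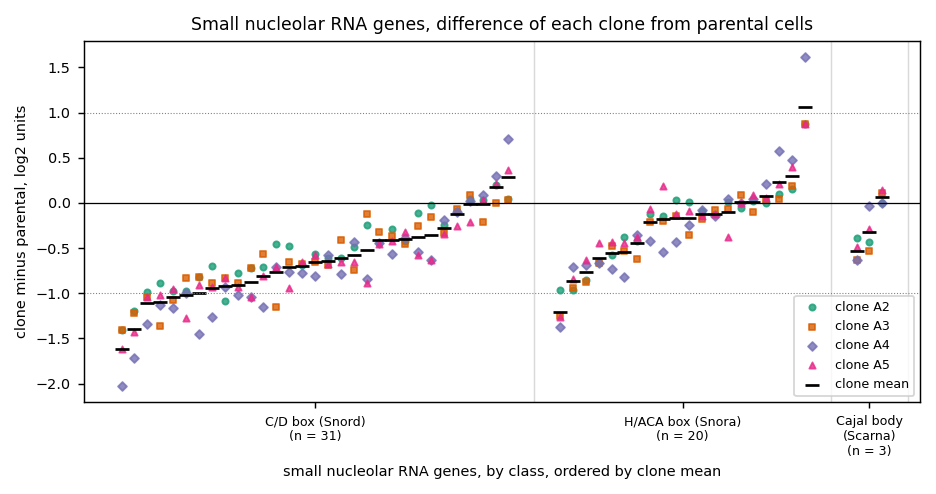
Difference of each PECAM1+ clone from the parental array in log2 units (vertical axis, coloured symbols; black bars are clone means) for 54 small nucleolar RNA genes, grouped by class; dotted lines mark 2-fold. Of the 31 C/D box genes 29 have a clone mean below 0, and Snora2b is the highest point of the H/ACA class.

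Differences also ran along stretches of chromosomes. By RefSeq gene order, medians over whole chromosomes were -0.073 on chromosome 19, -0.070 on chromosome 4 and -0.053 on chromosome 11, where 69.8%, 69.8% and 68.3% of genes were lower. On chromosome 7, for comparison, the median was 0.0013 and 47.8% were lower. Among genes in the upper 60% of mean level, running medians over 41 neighbouring genes lay below -0.2 over long runs. On chromosome 19, 144 of 161 genes from Ctsf to Cep78 were lower, with a median of -0.29 and single clones at -0.24, -0.27, -0.34 and -0.27. Bscl2, Pacs1, Fads1 and Rela lie in that run, and most of their neighbours were lower too.

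On chromosome 8, 77 of 90 genes from Cenpt to Klhl36 were lower, with a median of -0.29 and single clones at -0.20, -0.24, -0.38 and -0.33. On chromosome 4, 67 of 78 genes from Clspn to Tmem222 were lower, with a median of -0.28. Clone A1 minus the parental array had medians of -0.033, -0.066 and -0.15 over these runs of chromosomes 19, 8 and 4. The runs were found in the data they describe, so their medians are descriptions with no test. With dim genes included the medians were -0.089 over 288 genes for the run on chromosome 19 and -0.19 over 99 genes for that on chromosome 4. DNA copy number was not measured on these arrays.

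**Figure D5:**
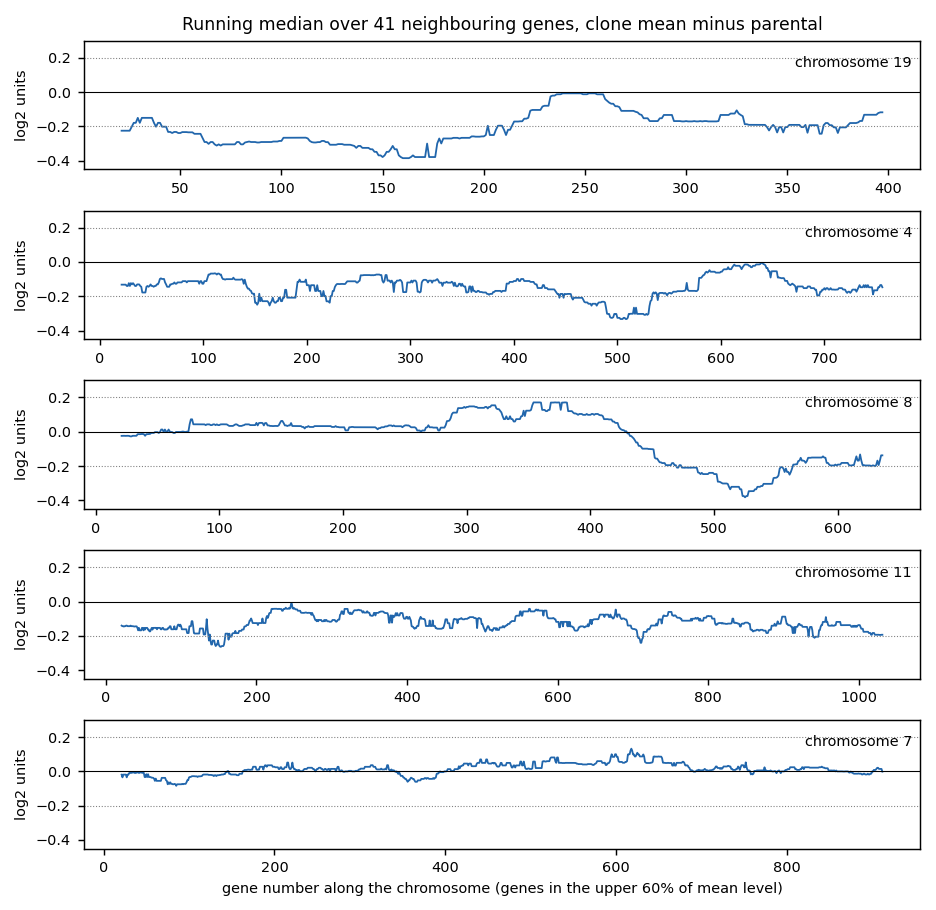
Running median of the clone mean minus parental difference over 41 neighbouring genes, in log2 units (vertical axis), along the gene order (horizontal axis) of chromosomes 19, 4, 8, 11 and 7, for genes in the upper 60% of mean level; dotted lines mark 0.2 and -0.2. Long runs below -0.2 are seen on chromosomes 19, 4 and 8, and none on chromosome 7.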

How the data were processed

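Total RNA of 5 B16F10 samples was hybridised to Affymetrix Mouse Gene 1.0 ST arrays, 1 array each. The authors deposited log2 values by probe set, with Partek as the tool per the submitters' processing notes, and they were used unchanged. Those notes name no version, genome build, background correction or normalization method. Of 35557 probe sets, 21789 had 1 gene symbol, 1621 several and 12147 none. The probe set with the highest mean stood for each of 19938 genes. Limma 3.58.1 (R 4.3.3, lmFit, eBayes with trend) was fitted over all genes, 1 parental array against 4 clones, with Benjamini-Hochberg adjustment at 0.05, after it was tested on simulated data. The number of arrays limits the precision.

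Genes were named by rule: the markers Pecam1, Fndc3c1, Praf2, Ccl5, Pmp2 and Npl, the 15 largest differences in each direction past the size rule (predicted genes, receptor families and small RNAs left out), up to 3 members of each gene list with the largest differences, and members of the interferon, PECAM1 and sialic acid lists for each role. Genes outside it (S100b, Mdm2, Eda2r, Tmsb4x, Vegfa, Insig2, Srebf2, Icam1, Ackr3, Rela, Kdr, Tek, Sox10, Snord and Snora genes, Fbl and Nop58) were chosen after their values were seen. So were Gstm7, Mogat1, Grhl2, Il12rb1 and Tnfrsf11b. Members and lists were chosen with earlier results of these data known. Alternatives covered normalization, dim genes, probe sets, the variance model, the size of difference and each clone left out.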

Additional observations from a re-analysis of the deposited data

Results flagged for a closer look

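In each of 12 of the 133 sets of 4 clone values examined, 1 clone stood far from the other 3, and chance gives this in about 1 in 20 sets. Identical values in 2 or 3 clones make such gaps easier to reach.

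Clone A4 stood apart for Cavin1, at 7.28 against 8.07 to 8.18 in the others, and for Snora2b, at 7.19 against 6.45. Clone A5 stood apart for Icam1 at 7.30 against 7.14 and for Mdm2 at 11.12 against 11.05. Clone A3 was high for Ifih1, at 7.82 against 7.68 to 7.70. Clone A2 was low for Slc2a4, at 5.77 against 6.19 to 6.25, and for Socs1, at 6.77 against 6.78.

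Among medians of gene lists, clone A3 was high for immediate early genes at 0.17 and for myelin and glial genes at 0.13, where the other clones reached 0.024 and 0.039. Clone A2 had medians of -0.042 for endothelial identity and -0.025 for imprinted genes, and clone A5 of -0.0033 for germline genes, each beside values at or near 0.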

How the results depend on the processing

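The parental group is 1 array, so no parental spread is known and a parental array that deviates by itself would look like a difference in every comparison above. Signal over background was not available. Limma called 2 genes as deposited, 7 after median centring (also Bscl2, Cav1, Cryzl2, Morc1 and Npl, each with adjusted p = 0.0367), 5 with dim genes left out (Pecam1, Bscl2, Cryzl2, Arhgef5 and Slc30a2, Fndc3c1 being filtered out), 1 with every probe set tested and 0 to 1 with any 1 clone left out. Genes past the size rule numbered 130, 545 at 1.5-fold, 17 at 4-fold and 54 when at least 2-fold from every clone was asked. With clones left out they numbered 127 to 161. The split of higher against lower calls moved by less than 10 percentage points under quantile normalization, with 87 of 127 higher, and median centring, with 86 of 130.

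With dim genes left out, list medians moved to 0.15 for chemokines and cytokines, 0.019 for endothelial identity, 0.39 for endothelin and renin-angiotensin (7 genes left), -0.16 for endothelium markers (1 gene left, Vwf), 0.031 for germline genes, 0.27 for the interferon pathway and 0.22 for myelin and glia. Chromosome medians moved to -0.14, -0.12 and -0.21 on chromosomes 4, 11 and 19. Median centring gave -0.029 for the EMT list, -0.010 for germline genes and -0.044 for imprinted genes, and -0.089, -0.072 and -0.092 on chromosomes 4, 11 and 19. The mean of probe sets gave 0.011 for germline genes.

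Leaving out 1 clone gave list medians of -0.034 to -0.0042 for endothelial identity, 0.00076 to 0.0069 for germline genes, -0.045 to -0.0029 for imprinted genes, -0.049 to 0.014 for leukocyte and platelet markers, -0.025 to 0.012 for lipid storage, 0.014 to 0.11 for myelin and glia, -0.064 to -0.010 for endothelin and renin-angiotensin, -0.050 to -0.016 for endothelium markers, 0.029 to 0.046 for chemokines and cytokines and -0.020 to -0.0030 for the EMT list. Of 808 alternative values of 101 named genes, 796 kept their direction and side of the threshold, 5 passed it newly (under median centring) and 7 no longer passed it (Pecam1 without clone A3, A4 or A5, and Fndc3c1 without any 1 clone). These 808 values leave out the settings without dim genes and with every probe set tested. There the calls of Bscl2, Cryzl2 and Fndc3c1 changed as well, as given above. Only Pecam1 and Fndc3c1 were called as deposited, so for the other genes keeping the side of the threshold meant staying uncalled. The 101 genes do not include Gstm7, Mogat1, Grhl2, Il12rb1 and Tnfrsf11b. No paired analysis was possible because the parental line has 1 array and no replicate number is shared between the groups.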

Other observations

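Of 13768 probe sets that name no gene or several, 225 (1.63%) were past the size rule, 122 higher and 103 lower in the clones, with differences from -2.04 to 2.32.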
